A study of Mus musculus with 20 samples.

Results

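The sinusoidal endothelial genes examined here are 10 genes listed by symbol: Stab1, Stab2, Lyve1, Pecam1, Kdr, Clec4g, Oit3, Fcgr2b, Bmp2 and Vwf. They were found among the 46603 Ensembl identifiers of the count files through their GENCODE M21 symbols, and all 10 were present. All 10 passed the filter on low counts, which kept 14661 identifiers, or 31.5% of all, and each had at least 34 reads in every library.

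Liver sinusoidal endothelial cells line the hepatic sinusoids as a fenestrated layer without a continuous basement membrane. They clear waste macromolecules and small immune complexes from blood through scavenger receptors, lectins and Fc receptors, and they pass signals to hepatocytes, among them BMP2, which acts on iron metabolism. In general endothelial biology, VEGF signalling through its receptor VEGFR2 maintains this specialised state, whereas vessels with a continuous wall carry von Willebrand factor. Several members are also made by other cells: Stab1 and Lyve1 by some macrophages, Lyve1 by lymphatic endothelium, Fcgr2b by B cells and Kupffer cells, Pecam1 and Vwf by platelets or their precursors.

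Poly(A) RNA of whole liver was sequenced in 20 libraries from 10 male mice aged 2 months, 5 per genotype, fed standard chow. Wild type (WT) mice were C57BL/6J animals bought from a vendor, and they carried neither Cre nor loxP sites. Knockout (KO) mice were EedHepKO, in which the Alb:Cre transgene expresses Cre from the albumin promoter, active in hepatocytes, and Eed carries loxP sites flanking exons 3 and 6. EED is a core subunit of polycomb repressive complex 2, a histone H3 methyltransferase that keeps genes silent. The Cre driver thus targets hepatocytes and not endothelial cells. Every mouse gave lobes 1, 2 and 3 at partial hepatectomy (PHx), called baseline, and lobes 4, 5 and 6 after PHx. In each genotype 1 mouse was killed at 30 h, 2 at 40 h and 2 at 48 h. Genotype and colony of origin cannot be told apart, nor can Cre or the floxed alleles themselves be told apart from the loss of EED, and stage cannot be told apart from lobe. Genotype and stage thus make 4 groups of 5 libraries.

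Total counts ran from 21634890 to 30461351 per library. Eed ranged from 14.6 to 23.2 CPM in the 10 WT libraries and from 2.75 to 7.52 CPM in the 10 KO libraries, so every library matched its labelled genotype. CPM here is counts per 1000000 of the library total scaled by the trimmed mean of M values (TMM). A gene is called when its Benjamini-Hochberg adjusted p in the edgeR quasi-likelihood test is under 0.05 over all genes tested, and every adjusted p below is from that test unless another is named. Differences are log2 fold changes with their standard error. The fit has no term for the mouse, so the baseline and later libraries of a mouse are treated as unpaired. A fit with the mouse as a block was run as an alternative. Because the RNA is from whole liver, fewer endothelial cells and less RNA per cell cannot be told apart.

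At rest Clec4g, Oit3 and Fcgr2b were the most abundant members. Levels of different genes were compared as RPKM, the CPM per kilobase of the gene's exons. In WT at baseline, Clec4g, which encodes the lectin LSECtin, had 19.7 ± 0.962 RPKM (SD, n = 5), with libraries from 18.7 to 20.6. Oit3, which encodes a secreted protein with a zona pellucida domain, followed at 9.18 ± 0.336 RPKM (SD, n = 5), and Fcgr2b, the inhibitory IgG receptor, at 7.25 ± 0.687 RPKM (SD, n = 5). The ranges of these 3 genes did not overlap one another or any other member.

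The next 6 members formed a continuous series in which each range overlapped that of its neighbour. In descending order of mean RPKM in WT at baseline they were Kdr at 4.51, Stab2 at 4.00, Bmp2 at 3.60, Stab1 at 2.60, Lyve1 at 2.41 and Pecam1 at 2.17. Vwf, the clotting factor carrier of continuous endothelium, stood apart at the bottom with 0.189 ± 0.0575 RPKM (SD, n = 5) and a range of 0.106 to 0.267. All 10 members and all 25 general endothelial genes used below passed the filter on low counts.

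After PHx the order changed. In WT after PHx mean RPKM was 8.88 for Clec4g, 6.74 for Lyve1 and 3.52 for both Oit3 and Fcgr2b. In KO after PHx Lyve1 had the highest mean, 12 ± 7.44 RPKM, ahead of Clec4g at 10.1 ± 9.06 RPKM (SD, n = 5 each). The spreads of these top members overlapped in both groups. Vwf remained the lowest member, at 0.251 and 0.321 RPKM.

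**Figure D1:**
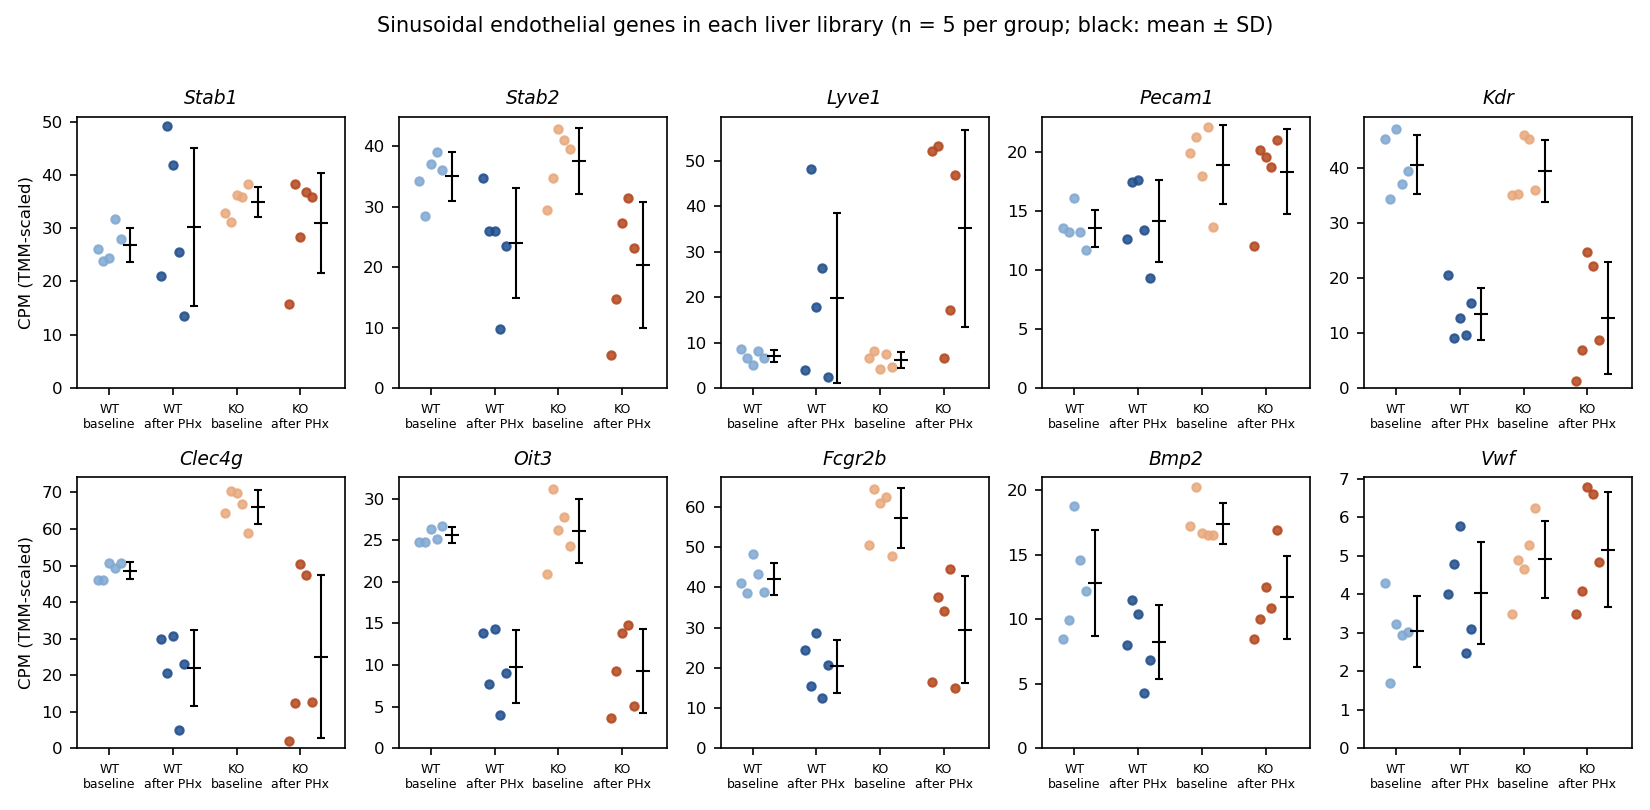
CPM (vertical axis, starting at 0, a separate scale for each gene) of the 10 genes in each of the 20 libraries, grouped by genotype and stage; points are libraries and black bars show the mean and SD of 5. Kdr, Oit3, Fcgr2b and Clec4g lie lower after PHx than at baseline in every library of the same genotype. Lyve1 ranges from 2.44 to 53.1 CPM after PHx, on both sides of its baseline values in WT.

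Before surgery, the question was whether loss of EED in hepatocytes goes with a different level of endothelial transcripts. None of the 10 members was called, against 16% of all genes tested. Of the 10, 8 had positive and 2 negative differences, from -0.19 to 0.69, with adjusted p between 0.0978 and 0.964, and the median was 0.41 against -0.03 for all genes. At an unadjusted p under 0.05 there were 2 members, Pecam1 and Vwf, beside 30.5% of all genes.

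Clec4g was the member whose genotypes did not overlap at baseline, where 15.6% of all genes were likewise apart and higher in KO. It measured 46.0, 46.1, 50.6, 49.3 and 50.8 CPM in the WT libraries and 64.3, 70.3, 69.9, 66.8 and 59.0 CPM in the KO libraries. Every KO library thus lay above every WT library. The difference was 0.44 ± 0.54 (SE) with adjusted p 0.618, from a fit in which all 4 groups shared 1 estimate of the spread. Fitted on the 10 baseline libraries alone, the same gene differed by 0.47 ± 0.09 (SE) with adjusted p 0.000898. In that fit 5 members were called higher, namely Stab1, Pecam1, Clec4g, Fcgr2b and Vwf, while 21.4% of all genes were called higher.

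The ranges of the other members overlapped between genotypes at rest, though some had a lower adjusted p than Clec4g. Pecam1, which encodes the junction protein CD31, rested on 13.5 ± 1.59 CPM (SD, n = 5) in WT and 18.9 ± 3.38 CPM (SD, n = 5) in KO, a difference of 0.48 ± 0.20 (SE) with adjusted p 0.0978. Leaving out replicate 7 of KO after PHx gave it an adjusted p of 0.0459. Vwf had 3.04 ± 0.924 CPM in WT and 4.91 ± 1.00 CPM in KO (SD, n = 5 each), a difference of 0.69 ± 0.29 (SE) with adjusted p 0.109. Fcgr2b differed by 0.45 (adjusted p 0.264), Bmp2 by 0.45 (0.250) and Stab1 by 0.38 (0.372). Stab2, Kdr, Oit3 and Lyve1 differed by 0.10, -0.04, 0.03 and -0.19, with adjusted p of at least 0.869. The 95% interval for Kdr ran from -0.98 to 0.90, in the fit where all 4 groups shared the estimate of the spread.

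Macrophage and stellate cell markers were higher in KO at baseline, and macrophages make some of the members too. All 14 Kupffer cell and macrophage markers had positive differences and 6 were called, with 11.1% of all genes called higher. Their summed level was 244 to 422 CPM in WT and 635 to 816 CPM in KO. All 10 stellate cell markers were positive and 6 were called, with sums of 177 to 297 CPM in WT and 459 to 604 CPM in KO. The summed hepatocyte markers were lower, at 84126 to 113374 CPM in KO against 137941 to 158363 CPM in WT. Their part in the members' values was not tested. Scaling by library size alone, without TMM, called 5 members higher (Stab1, Pecam1, Fcgr2b, Bmp2 and Vwf) and 24% of all genes, while the median of all genes moved to 0.45, the value that Kdr then had.

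After PHx, Kdr, Oit3 and Fcgr2b fell in both genotypes. In WT 3 members were called lower, against 8.68% of all genes, and none higher, against 11.4%. In KO the same 3 were called lower, against 12.1% of all genes, and Lyve1 was called higher, against 17.5%. The median over the 10 members was -0.59 in WT and -0.72 in KO, beside 0.04 and 0.10 for all genes. In WT 6 members and in KO 7 had an unadjusted p under 0.05, against 34% and 42.7% of all genes. Scaled by library size alone, 1 member was called lower in WT (Oit3, against 3.97% of all genes) and 2 higher (Lyve1 and Vwf, against 25.9%), and 2 lower in KO (Kdr and Oit3, against 6.55%). The summed hepatocyte markers were 79254 to 123831 CPM in WT after PHx and 44043 to 97696 CPM in KO after PHx, beside baseline medians of 140233 and 88499 CPM, and their part in the members' values was not tested.

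Kdr encodes VEGFR2, the main signalling receptor for VEGF in endothelium. It measured 45.3, 34.4, 47.1, 37.1 and 39.5 CPM in WT at baseline and 20.5, 9.09, 12.7, 9.61 and 15.4 CPM in WT after PHx. In KO it measured 35.1, 35.4, 46.1, 45.4 and 36.0 CPM at baseline and 1.29, 6.90, 24.7, 22.3 and 8.66 CPM after PHx. Stages did not overlap in either genotype, and the lowest value was that of KO replicate 7 at 48 h. The change was -1.60 ± 0.46 (SE; adjusted p 0.0197) in WT and -1.63 ± 0.46 (SE; adjusted p 0.0140) in KO. The call in WT did not hold when replicate 2 (-1.48, adjusted p 0.0513) or replicate 4 (-1.44, 0.0629) of the later stage was left out, nor the call in KO when the KO libraries were fitted alone (-1.61, 0.0640), though the size of the change was similar.

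Oit3 gave the lowest adjusted p of the members in both genotypes. Its WT libraries held 24.8, 24.8, 26.4, 25.1 and 26.7 CPM at baseline and 13.9, 7.74, 14.3, 3.97 and 9.10 CPM after PHx. Its KO libraries held 21, 31.2, 26.2, 27.8 and 24.3 CPM at baseline and 3.60, 9.27, 13.8, 14.8 and 5.11 CPM after PHx. The highest value after PHx was thus below the lowest at baseline in each genotype. The change was -1.38 ± 0.34 (SE; adjusted p 0.00839) in WT and -1.49 ± 0.34 (SE; adjusted p 0.00460) in KO, and it was called under every alternative run.

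Fcgr2b encodes the receptor through which sinusoidal endothelium takes up small immune complexes. WT libraries had 41.0, 38.6, 48.2, 43.3 and 38.8 CPM at baseline and 24.4, 15.6, 28.7, 12.5 and 20.8 CPM after PHx. KO libraries had 50.6, 64.5, 61.0, 62.4 and 47.7 CPM at baseline and 16.5, 37.5, 34.2, 44.6 and 15 CPM after PHx. The stages were again apart, by a narrow margin in KO, where replicate 11 kept 44.6 CPM. The change was -1.04 ± 0.27 (SE; adjusted p 0.0104) in WT and -0.95 ± 0.27 (SE; adjusted p 0.0130) in KO. Scaled by library size alone it was -0.67 (0.115) and -0.62 (0.133), while the median of all genes moved to 0.40 and 0.37. B cells and macrophages also make Fcgr2b. The 5 B cell markers summed to 1.29 to 4.00 CPM at baseline and 0.0355 to 1.44 CPM after PHx in WT, and to 2.62 to 4.24 and 0.176 to 1.56 CPM in KO, and 2 of the 3 tested were called lower in each genotype. Kupffer cell and macrophage markers summed to 635 to 816 CPM in KO at baseline and 199 to 562 CPM after PHx, with 4 of 14 called lower and 1 higher. In WT they summed to 244 to 422 and 112 to 512 CPM, with 1 called lower and 3 higher. Of all genes, 8.68% were called lower and 11.4% higher in WT, and 12.1% and 17.5% in KO. The part of either cell type in the Fcgr2b change was not tested. Fcgr3, whose extracellular exons resemble those of Fcgr2b, stayed between 2.44 and 15.7 CPM. Reads shared with that gene are uncertain, as are those of the antisense gene Gm38204. The same holds for Clec4g with Gm16553 and Stab2 with Gm16268, each on the opposite strand.

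Clec4g and Stab2 had lower values after PHx that did not pass the threshold in the fit of all 20 libraries, which has no term for the mouse. Clec4g had 29.9, 20.7, 30.6, 4.96 and 23.1 CPM in WT after PHx and 1.98, 12.5, 50.4, 47.5 and 12.6 CPM in KO after PHx. Each was below every baseline library of its genotype, so 4 members were apart and lower in each genotype, against 10.9% of all genes in WT and 7.73% in KO. The difference was -1.15 ± 0.55 (SE; adjusted p 0.141) in WT and -1.40 ± 0.55 (SE; adjusted p 0.0586) in KO. In KO, replicates 10 and 11, both at 40 h, stood far above the other 3 libraries. With the mouse as a block over the 9 mice numbered at both stages, Clec4g in KO was -2.04 ± 0.62 (SE; adjusted p 0.0377). DESeq2 also called it lower in KO (-1.38, adjusted p 0.0334), with 13.8% of all genes called lower, and the 10 WT libraries fitted alone called it lower in WT (-1.11, adjusted p 0.0453).

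Stab2 encodes the hyaluronan clearance receptor stabilin-2. It had 34.3, 28.4, 37.1, 39.0 and 36.1 CPM in WT at baseline and 34.8, 25.9, 26, 9.75 and 23.5 CPM after PHx. In KO it had 29.4, 34.7, 42.9, 41.0 and 39.6 CPM at baseline and 5.42, 14.8, 27.3, 31.5 and 23.1 CPM after PHx. Stages overlapped in both genotypes. The difference was -0.55 ± 0.34 (SE; adjusted p 0.271) in WT and -0.88 ± 0.34 (SE; adjusted p 0.0572) in KO. With the mouse as a block Stab2 in KO was -1.08 ± 0.32 (SE; adjusted p 0.0350), so that 5 members were called lower in KO, against 11.7% of all genes. A fit with a term for time after PHx called 6, these 5 and Bmp2, against 15.2% of all genes.

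**Figure D2:**
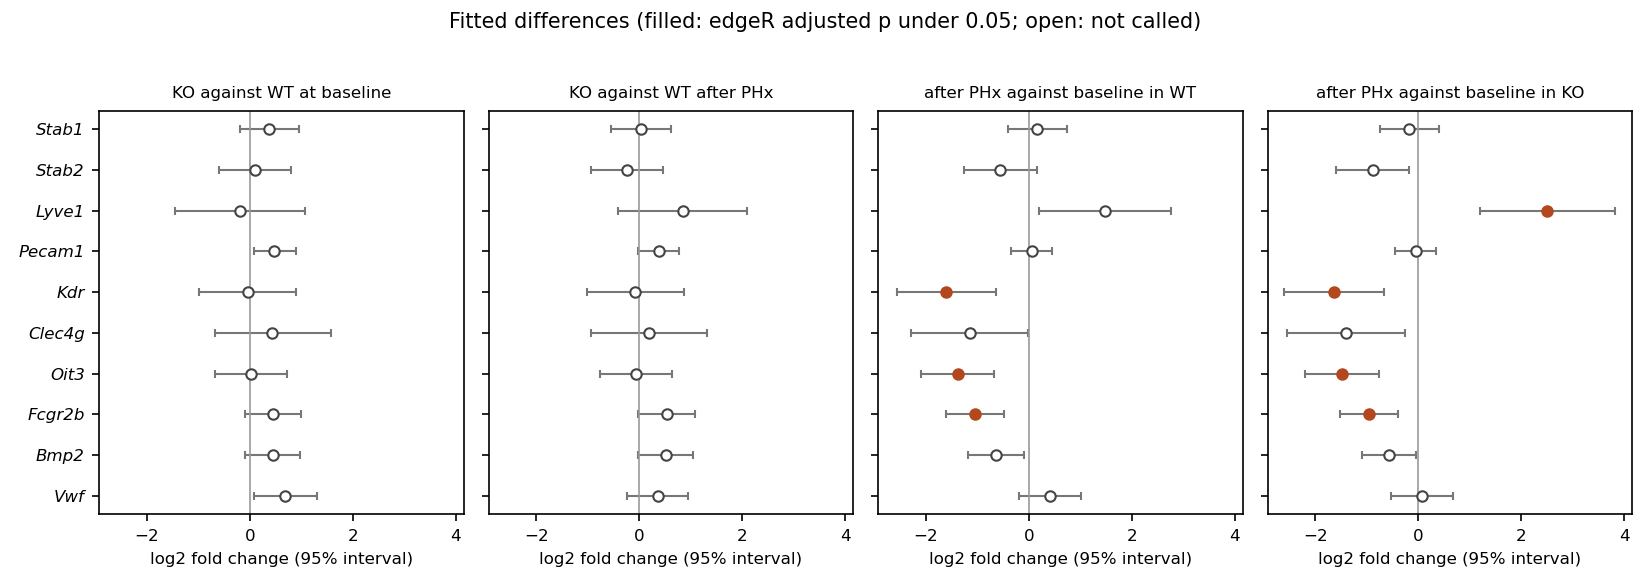
Fitted log2 fold change (horizontal axis) of each gene with its 95% interval in 4 comparisons, 5 against 5 libraries each; filled points have an edgeR adjusted p under 0.05 and open points do not. The 2 panels of KO against WT hold no filled point, and Kdr, Oit3 and Fcgr2b are filled and negative in both panels of the PHx response.

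Promoter sequences were held by the RefSeq table for 5 of the 10 members (build GRCm38.p6, all on the minus strand), from 250 bases before to 50 after the annotated start. They were searched on both strands for AGGAAG, a core sequence of ETS factors, and AGATAA, a core sequence of GATA factors; both factor families are known in endothelial gene regulation. Kdr and Fcgr2b, which fell in both genotypes, are printed with Clec4g, whose stages were apart, and Stab1, whose stages overlapped. The sequences run 5′ to 3′ on the gene's strand. Whether the responses of these genes differ was not tested. Capitals mark AGGAAG or its reverse complement.
Kdr, chr5:75978406-75978705: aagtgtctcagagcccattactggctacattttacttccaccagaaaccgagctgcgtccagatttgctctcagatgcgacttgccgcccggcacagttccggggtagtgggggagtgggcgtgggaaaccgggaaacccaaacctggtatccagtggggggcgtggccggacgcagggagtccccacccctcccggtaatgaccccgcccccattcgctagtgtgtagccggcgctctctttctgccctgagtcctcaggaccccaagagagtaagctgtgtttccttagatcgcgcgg
Fcgr2b, chr1:170976022-170976321: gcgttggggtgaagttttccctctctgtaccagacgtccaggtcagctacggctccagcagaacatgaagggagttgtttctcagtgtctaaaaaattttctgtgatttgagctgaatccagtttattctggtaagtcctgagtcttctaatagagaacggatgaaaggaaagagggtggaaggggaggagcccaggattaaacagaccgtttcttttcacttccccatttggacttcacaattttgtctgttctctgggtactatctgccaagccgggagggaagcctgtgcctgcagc
Clec4g, chr8:3720602-3720901: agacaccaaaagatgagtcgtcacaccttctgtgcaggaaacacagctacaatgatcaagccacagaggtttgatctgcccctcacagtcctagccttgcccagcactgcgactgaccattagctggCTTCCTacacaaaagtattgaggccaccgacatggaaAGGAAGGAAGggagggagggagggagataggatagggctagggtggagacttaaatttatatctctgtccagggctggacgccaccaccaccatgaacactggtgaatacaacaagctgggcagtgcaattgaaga
Stab1, chr14:31168592-31168891: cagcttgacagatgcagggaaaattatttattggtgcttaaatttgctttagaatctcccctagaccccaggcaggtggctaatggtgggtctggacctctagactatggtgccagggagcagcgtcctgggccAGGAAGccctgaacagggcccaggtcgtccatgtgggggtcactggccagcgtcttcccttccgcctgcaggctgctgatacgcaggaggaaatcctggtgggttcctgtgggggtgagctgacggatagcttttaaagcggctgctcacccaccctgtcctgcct
Clec4g held 3 matches to AGGAAG, of which 2 overlap, beginning 123, 86 and 82 bases before the start. Stab1 held 1, at 116 bases before the start, and Stab2 held 1, at 40 bases before it. The windows of Kdr and Fcgr2b held no match. AGATAA occurred in none of the 5. Of all 32851 promoters of the same length, 35.4% held AGGAAG and 11.2% held AGATAA. Of the 5 members, 3 thus held AGGAAG, and a match describes letters only.

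Lyve1, the hyaluronan receptor shared with lymphatic vessels, went the other way and was the most variable member in WT after PHx. It had 8.52, 6.70, 5.09, 8.16 and 6.65 CPM in WT at baseline and 3.88, 48.1, 17.7, 26.3 and 2.44 CPM after PHx. In KO it had 6.50, 8.03, 4.28, 7.39 and 4.60 CPM at baseline and 52.0, 53.1, 6.52, 17.2 and 46.9 CPM after PHx. In each genotype most libraries after PHx lay above every baseline library, but WT replicates 1 and 5 fell below every WT baseline library and KO replicate 10 lay within the KO baseline range.

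The rise of Lyve1 was 2.51 ± 0.63 (SE; adjusted p 0.00760) in KO, and it was called under every alternative run. In WT the difference was 1.49 ± 0.61 (SE; adjusted p 0.0931). That value passed the threshold in DESeq2 (1.52, adjusted p 0.0413, where 15.5% of all genes were called higher), without the 30 h samples (1.75, 0.0421), and with replicate 1 (1.75, 0.0406) or 5 (1.83, 0.0252) of WT after PHx left out. With the mouse as a block it was 1.35 (0.206) over the 9 mice numbered at both stages, and 0.82 (0.435) over 10 mice, where WT baseline replicate 1, whose label has no mouse number, was taken as the remaining mouse by elimination. The difference between the responses was 1.03 ± 0.85 (SE; adjusted p 0.646), with an interval from -0.75 to 2.81. Of all genes, 11.4% were called higher after PHx in WT and 17.5% in KO. Of 3 tested lymphatic endothelial markers (4 listed), 1 was called higher in each genotype, as Lyve1 was in KO. That marker was Pdpn, which encodes podoplanin, with differences of 3.41 (adjusted p 0.0153) in WT and 2.26 (0.0443) in KO. Its levels were low, at 0 to 0.257 CPM at baseline and 0.0872 to 2.05 CPM after PHx in WT, and 0.0690 to 0.291 and 0.330 to 1.56 CPM in KO. The 4 markers summed to 80.6 to 211 CPM in WT at baseline and 104 to 161 after PHx, and to 72.8 to 122 and 91.1 to 160 CPM in KO. Nearly all of these sums came from Prox1, which hepatocytes also express, at 35.6 to 195 CPM, and Flt4, at 8.54 to 63.8 CPM over the 20 libraries. Their part in the Lyve1 values was not tested.

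The libraries with little Lyve1 after PHx were those with the most Mki67, a marker of dividing cells, a pattern picked after the values were seen and given as a description. WT replicate 5, WT replicate 1 and KO replicate 10 had 2.44, 3.88 and 6.52 CPM of Lyve1 and 328, 82.3 and 119 CPM of Mki67. The other 7 libraries had 17.2 to 53.1 CPM of Lyve1 and 0.217 to 25.3 CPM of Mki67. These 3 libraries came from 48 h, 30 h and 40 h, and the part of the time after PHx was not tested. Neutrophil markers also differed among these libraries. Of 3 tested (5 listed), 3 were called higher after PHx in WT and 1 in KO, against 11.4% and 17.5% of all genes. Their sums were 2.70 and 1.37 CPM in WT replicates 1 and 5 and 20.1 to 41.7 CPM in the other 3 WT libraries, which had more Lyve1. In KO they were 3.66 CPM in replicate 10 and 10.7 to 66.8 CPM in replicates 7, 8 and 12, but 2.86 CPM in replicate 11, which had 17.2 CPM of Lyve1. Kupffer cell and macrophage sums were 432, 266 and 557 CPM in the 3 libraries with little Lyve1, inside the 112 to 562 CPM of the other 7. The part of these cells in the Lyve1 values was not tested.

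**Figure D3:**
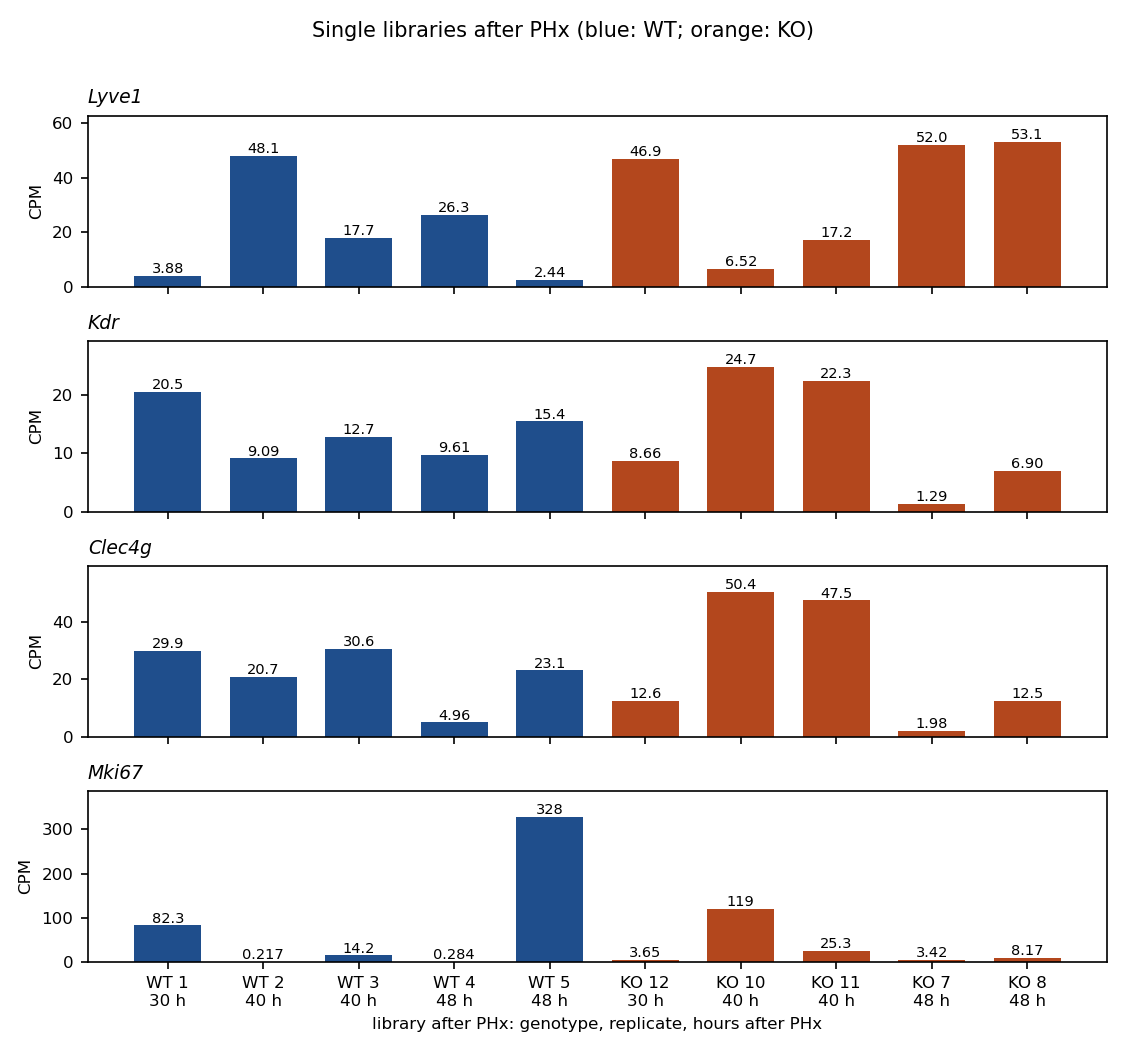
CPM (vertical axes, starting at 0, a separate scale for each gene) of Lyve1, Kdr, Clec4g and the proliferation marker Mki67 in the 10 libraries after PHx, ordered by genotype and hours. Lyve1 is lowest, at 2.44 to 6.52 CPM, in the 3 libraries with the highest Mki67, and Kdr and Clec4g are lowest in KO replicate 7.

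Stab1, Pecam1 and Vwf were not called in either PHx response. Stab1, the second stabilin, had 21.1, 49.1, 41.9, 25.6 and 13.5 CPM in WT after PHx, spread on both sides of a baseline of 23.8 to 31.7 CPM. In KO it had 15.8, 38.3, 28.3, 36.7 and 35.9 CPM after PHx beside 31.2 to 38.3 CPM at baseline. In log2 the differences were 0.17 (95% interval -0.40 to 0.75; adjusted p 0.702) in WT and -0.17 (interval -0.74 to 0.40; adjusted p 0.659) in KO. Whether Stab1 and Stab2, both stabilins, responded differently was not tested. Stab1 exons overlap those of Nt5dc2 on the other strand, and the strand setting of the counting is not given in the sources used here.

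Pecam1 had 9.34 to 17.6 CPM in WT after PHx and 12 to 21 CPM in KO after PHx. Its differences were 0.06 (interval -0.35 to 0.46; adjusted p 0.880) and -0.05 (interval -0.46 to 0.35; adjusted p 0.859). Vwf had 2.48 to 5.78 CPM in WT after PHx, a difference of 0.41 (interval -0.19 to 1.01; adjusted p 0.339), and 3.48 to 6.79 CPM in KO, a difference of 0.07 (interval -0.52 to 0.67; adjusted p 0.868). The 6 platelet and megakaryocyte markers summed to 1.43 to 3.76 CPM in WT at baseline and 1.40 to 8.39 CPM after PHx. In KO the sums were 2.70 to 4.11 and 3.39 to 6.61 CPM. Of 3 tested, 1 was called higher in the WT response, against 11.4% of all genes. In the KO response 1 was called lower, against 12.1%. Their part in the Pecam1 and Vwf values was not tested. The lower ends of the Pecam1 and Vwf intervals lay above the estimates for Kdr and Oit3. Those estimates had WT intervals of -2.56 to -0.63 and -2.10 to -0.67. Whether the responses of these genes differ was not tested.

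Bmp2, the secreted ligand, was not called in either response. It had 8.45, 9.95, 18.8, 14.6 and 12.2 CPM in WT at baseline and 7.98, 11.5, 10.4, 4.29 and 6.87 CPM after PHx. In KO it had 17.2, 20.2, 16.7, 16.5 and 16.5 CPM at baseline and 8.45, 9.99, 12.5, 10.9 and 16.9 CPM after PHx. Stages overlapped in both genotypes, in KO through replicate 12 alone. The difference was -0.64 ± 0.26 (SE; adjusted p 0.0846) in WT and -0.57 ± 0.26 (SE; adjusted p 0.0954) in KO, and with that library left out the KO value was called (adjusted p 0.0437). It was also called in KO without the 30 h samples (-0.74, adjusted p 0.0483), and with a term for time it was called in both genotypes, at -0.69 (0.0332) in WT and -0.59 (0.0462) in KO.

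Set against other endothelial transcripts, members differed in the sign of their change. For this, the mean log2(CPM + 0.5) over 25 general endothelial genes was subtracted from each member's value in each library. That mean itself went from 3.13 ± 0.05 to 2.65 ± 0.28 in WT and from 3.27 ± 0.11 to 2.75 ± 0.32 in KO (SD, n = 5 each). Relative to it, WT values after PHx were lower than at baseline by 1.13 for Kdr, 0.98 for Oit3, 0.87 for Clec4g and 0.60 for Fcgr2b, with no overlap between stages, against 3.10% of all genes apart and lower on this scale. In KO, Kdr was lower by 1.58, Clec4g by 1.54 and Oit3 by 1.08 with no overlap, against 2.48% of all genes, and Fcgr2b was lower by 0.54 with overlap.

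Lyve1, Stab1, Vwf and Pecam1 had higher means after PHx on this scale. Lyve1 was higher by 1.23 in WT and 2.62 in KO and Stab1 by 0.52 and 0.29, all with overlap. Vwf was higher by 0.83 in WT and 0.57 in KO without overlap, where 23.9% and 13.6% of all genes were also apart and higher. Pecam1 was higher by 0.51 and 0.47, with overlap. With Cdh5 alone as the reference the last 2 genes had smaller values, 0.18 and 0.14 for Pecam1 and 0.50 and 0.24 for Vwf. No test was made on relative levels.

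**Figure D4:**
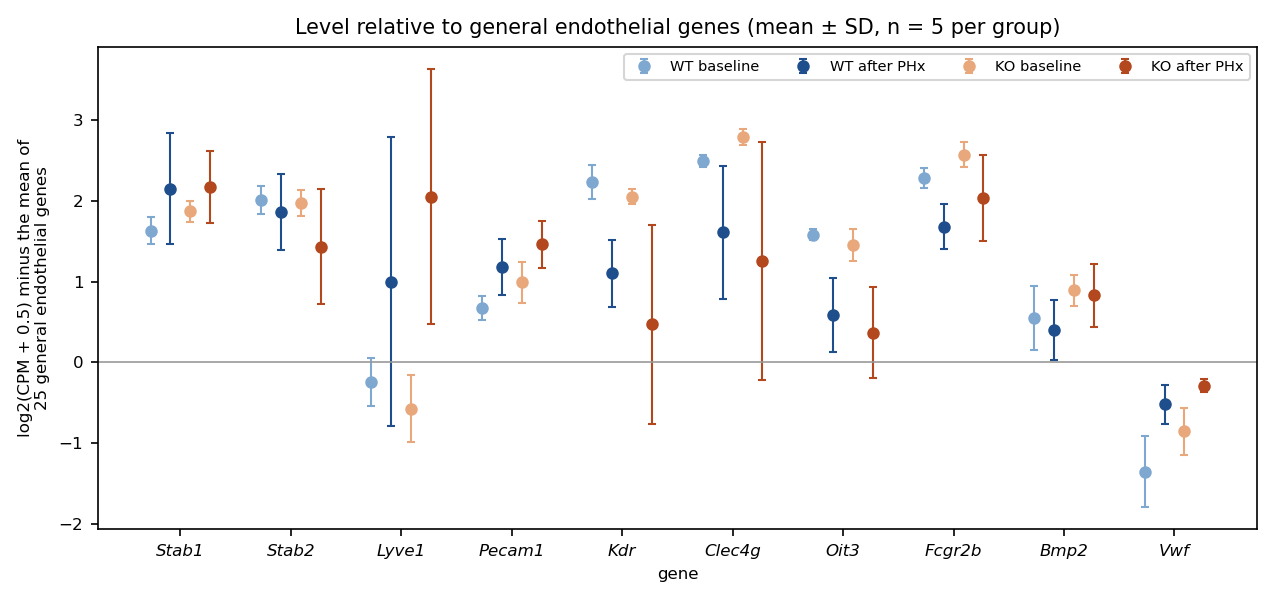
Level of each gene relative to 25 general endothelial genes (vertical axis, log2 units, mean and SD of 5 libraries) in the 4 groups. Kdr, Clec4g, Oit3 and Fcgr2b have lower means after PHx than at baseline in both genotypes, while Lyve1, Stab1, Vwf and Pecam1 have higher ones.

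Between genotypes after PHx, no member was called, against 24.2% of all genes, none had an unadjusted p under 0.05, against 36.5%, and no member's groups were apart, against 10%. Differences ran from -0.23 to 0.84, with the highest for Lyve1 (0.84 ± 0.60 SE; adjusted p 0.329). Fcgr2b differed by 0.53 (interval -0.02 to 1.09; adjusted p 0.151), Bmp2 by 0.52 (interval -0.02 to 1.05; adjusted p 0.152) and Pecam1 by 0.38 (interval -0.03 to 0.78; adjusted p 0.168). With replicate 12 of KO after PHx left out, Fcgr2b was called (0.70, adjusted p 0.0441), and library size scaling called 3 members higher (Pecam1, Fcgr2b and Bmp2), against 26.6% of all genes. The remaining members had adjusted p of 0.389 to 0.938. These comparisons share libraries with the PHx responses above.

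The difference of the PHx responses between genotypes was called for no member, with 0.389% of all genes called. Values ran from -0.34 for Stab1 and Vwf to 1.03 for Lyve1, with adjusted p from 0.646 to 0.994. For Kdr the interval was -1.37 to 1.29 and for Clec4g -1.84 to 1.34.

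Between 40 h and 48 h the difference between genotypes kept its sign in 4 members and changed it in 6. Pecam1 (0.13 and 0.50), Fcgr2b (0.83 and 0.70), Bmp2 (0.09 and 0.72) and Vwf (0.34 and 0.44) were positive at both times, and none of these was called. The genotypes were not compared at 30 h, which has 1 library in each. At 40 h, with 2 libraries per genotype, Kdr was 1.11 ± 0.47 (SE; adjusted p 0.118) in KO against WT, and at 48 h it was -1.60 ± 0.48 (SE; adjusted p 0.0236), where 10.7% of all genes were called lower. The KO values were 24.7 and 22.3 CPM at 40 h and 1.29 and 6.90 CPM at 48 h, beside 9.09 and 12.7 CPM and then 9.61 and 15.4 CPM in WT. Lyve1 turned the other way, at -1.47 (adjusted p 0.176) at 40 h and 1.87 (adjusted p 0.0698) at 48 h. The change from 40 h to 48 h between genotypes was not tested.

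Libraries after PHx differed more among themselves than those at baseline. The median coefficient of variation of the members was 11.8% in WT and 14.4% in KO at baseline, below the medians of all genes, 15.3% and 18.9%. After PHx it was 36.3% in WT and 47.8% in KO, above the medians of all genes, 30.8% and 40.1%. In KO after PHx the highest library exceeded the lowest 25.5 times for Clec4g, 19.2 times for Kdr and 1.74 times for Pecam1. KO replicate 7 ranked 10 of the 10 libraries after PHx for Stab2, Kdr, Clec4g and Oit3, and 2 for Lyve1.

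Across all 20 libraries Stab2, Kdr, Clec4g and Oit3 followed one another, with pairwise Pearson correlations of log2(CPM + 0.5) from 0.86 to 0.95. Lyve1 correlated with these 4 at -0.68 to -0.78. Over the 10 libraries after PHx alone, the same 4 genes correlated pairwise at 0.78 to 0.94, and Lyve1 with them at -0.52 to -0.68. Stab1 and Pecam1 correlated at 0.87 in these libraries. These are descriptions, since the libraries share groups, hours and tissue makeup.

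Among 12529 other genes the closest to the mean standardised profile of the members over 20 libraries was Ptprb, the endothelial phosphatase VE-PTP, at a Pearson correlation of 0.87. The rest of the closest 10 were Pilrb1, Adgre1, Hspg2, Pld4, Lyz2, Ly9, Cd300lg, Csf1r and Treml4, at 0.86 to 0.82. Adgre1, Lyz2 and Csf1r are macrophage genes, and Cd300lg is an endothelial surface protein. Lyve1 had a correlation of -0.44 with the mean of the other 9 members.

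Other genes of sinusoidal endothelium were read from a list of 12, all tested. This and the following lists were chosen with earlier results of these data known, so their counts beside all genes are descriptions. After PHx 1 rose and 2 fell in WT, and 5 fell and none rose in KO. Of all genes, 11.4% rose and 8.68% fell in WT and 17.5% rose and 12.1% fell in KO, the shares against which this and the following lists are read. Mrc1, the mannose receptor, fell by 1.40 (adjusted p 0.00188) in WT and 1.10 (0.00704) in KO. F8, which encodes clotting factor VIII, fell by 1.30 (0.0280) and 1.34 (0.0189). Icam1, a leukocyte adhesion molecule, rose by 1.80 (0.00297) in WT. At baseline 3 of the 12 were higher in KO, against 11.1% of all genes, among them Maf by 1.00 (0.00102) and Icam1 by 1.91 (0.00185). After PHx 3 were higher in KO, against 16% of all genes, among them Flt4, which encodes VEGFR3, by 1.56 (0.000328).

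Of the 25 general endothelial genes, 5 fell and 1 rose in WT, and 7 fell and 2 rose in KO, with medians of -0.49 and -0.52. Clec14a fell by 1.61 (adjusted p 0.00343) in WT and 2.06 (0.000904) in KO. Nos3, the endothelial nitric oxide synthase, rose by 1.82 (0.00743) in WT and 1.27 (0.0328) in KO. At baseline Cdh5 (0.57, adjusted p 0.0376) and Egfl7 (0.52, 0.0496) were the 2 higher in KO, against 11.1% of all genes.

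Of 10 tested genes of continuous or sprouting vessels (12 listed), 6 rose and 1 fell after PHx in WT, and 3 rose and 1 fell in KO. Nid1, which encodes the basement membrane protein nidogen-1, rose by 3.49 (adjusted p 0.000177) in WT and 2.00 (0.00569) in KO, and Col4a2 by 1.30 (0.000346) and 0.96 (0.00291). At baseline 6 were higher in KO, against 11.1% of all genes, led by Cd34 (2.63, adjusted p 1.32e-05) and Ly6a (2.53, 9.88e-05). Stellate cells also make basement membrane collagens, and the stellate sums given above were higher with these genes at baseline, and their part was not tested.

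Of 7 central vein genes 2 rose after PHx in each genotype. Thbd, thrombomodulin, rose by 3.59 (adjusted p 1.22e-06) in WT and 2.47 (0.000173) in KO. Of 9 portal and arterial genes 1 rose and 3 fell in WT, and 3 rose and 1 fell in KO. Ltbp4 fell by 1.70 (0.000357) in WT and 0.98 (0.0110) in KO. After PHx 5 of these 9 were higher in KO than in WT, with 16% of all genes called higher. Of those above a mean of 1 CPM, Efnb2 (3.72, adjusted p 5.63e-05) and Ntn4 (1.96, 0.000286) had the smallest adjusted p. The largest difference in the list was 4.82. Of 5 tested cholangiocyte markers (6 listed), 4 were also called higher in KO after PHx, with sums of 120 to 562 CPM beside 21 to 239 CPM in WT. Efnb2 was highest in KO replicate 11, at 29.5 CPM, where the cholangiocyte sum was 275 CPM, while that sum was highest in KO replicates 7 and 8, at 562 and 537 CPM, with 9.74 and 11.4 CPM of Efnb2. The part of bile duct cells in these differences was not tested.

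The ligands of the pathways that the members serve were measured as well. Of 14 tested VEGF and angiopoietin genes (15 listed), 2 fell in WT and 1 fell and 1 rose in KO. Vegfa, the ligand of VEGFR2, fell by 0.58 (adjusted p 0.0152) in WT and 0.74 (0.00353) in KO. Of 27 tested BMP pathway genes (30 listed), 2 rose and 3 fell in WT, and 3 rose and 5 fell in KO, shares near those of all genes given above. Bmper, a secreted BMP binding protein, rose by 4.95 (adjusted p 9.93e-05) in WT and 4.86 (0.000259) in KO. At baseline Smad6 (1.10, adjusted p 0.00628) and the BMP target Id1 (2.21, 0.00847) were among 4 BMP pathway genes higher in KO, where 11.1% of all genes were.

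Of 15 Fc and scavenger receptor genes, 2 rose and 3 fell in WT after PHx, and 3 rose and 4 fell in KO. Marco, a macrophage scavenger receptor, rose by 3.89 (adjusted p 0.00122) in WT and 2.42 (0.0124) in KO. Of 14 tested C-type lectin genes (16 listed), 1 rose and 5 fell in WT, and none rose and 7 fell in KO. Colec10, a soluble collectin, fell by 2.58 (0.000359) in WT and 1.63 (0.00578) in KO, and Clec2d by 2.48 (0.00102) and 2.41 (0.00140). Summed Kupffer cell and macrophage markers ran from 112 to 512 CPM in WT after PHx and from 199 to 562 CPM in KO after PHx, and their part in these changes was not tested. That sum includes Marco and Cd163 of the receptor list and Clec4f of the lectin list, so it is not separate from them. The counts over lists were made on the TMM scale alone.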

How the data were processed

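Per the labels and the deposited files, the authors' values are raw read counts by Ensembl identifier, not normalised, with a separate file for every library. Per the design text, fastp 0.20.0 trimmed the reads, FastQC 0.11.5 checked them before and after, and reads with a unique place in mm10 were counted. The submitters' processing notes name Trimmomatic 0.36 as well. Aligner, counter, strand and annotation are not given in the sources used here, so overlapping genes on opposite strands and close paralogs are uncertain.

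GENCODE M21 gave symbols for 46091 of 46603 identifiers, and 21018 had no count. Counts were fitted with edgeR 4.0.16 in R 4.3.3 (TMM, filterByExpr, two-sided quasi-likelihood test, 20 libraries, 4 group means). The code was first run on simulated counts with the same spread in every group and no pairing by mouse. That run does not assess how well the fit suits these libraries. Alternatives included DESeq2 1.42.0, other scalings and filters, time, mouse block and leaving out each library. All members are named, and per list at most the 2 called genes with the smallest adjusted p in each direction above a mean of 1 CPM. Members and lists were chosen with earlier results of these data known. Pairing of stages by mouse comes from the labels: over 9 same-number pairs residual correlations ran from -0.07 to 0.18, and over 40 other pairs from -0.24 to 0.27. Mice are the replicates.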

Additional observations from a re-analysis of the deposited data

Results flagged for a closer look

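Among 40 sets of 5 libraries (10 genes in 4 groups), 2 had a library far from the others, and chance alone flags about 1 in 20 such sets. Pecam1 in KO after PHx was 12 CPM in replicate 7, a 48 h sample, against 18.7 to 21 CPM in the other 4 libraries. Bmp2 in KO at baseline was 20.2 CPM in replicate 8, against 16.5 to 17.2 CPM in the other 4.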

How the results depend on the processing

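Alternatives covered scaling, filter, tool, the libraries fitted, time and the mouse. For the 41 member differences, 1108 refitted values had the same direction and the same side of the threshold, 54 changed sign, 41 became called and 6 lost a call; the cause was not tested. Library size alone called 5 members higher at baseline, 3 higher after PHx, 2 higher and 1 lower in the WT response; KO against WT turned to 0.30 for Lyve1 and 0.45 for Kdr at baseline, and to 0.15 for Stab2, 0.31 for Kdr and 0.36 for Oit3 after PHx, and the KO response to 0.11 for Stab1 and 0.20 for Pecam1. Without a filter Kdr at baseline was 0.03. DESeq2 called 1 member, Lyve1, higher in the WT response, where it called 15.5% of all genes higher, and Clec4g lower in the KO response (-1.38, adjusted p 0.0334). Without the 30 h samples 1 member was higher in KO after PHx, against 15.1% of all genes. In the WT response 1 was higher, against 12.7%. KO against WT after PHx was then -0.13 for Stab1, 0.23 for Kdr and 0.24 for Oit3. The 10 baseline libraries alone called 5 members higher. The time term called 6 lower in the KO response and gave Clec4g -0.26 after PHx. At 40 h KO against WT was -0.48 for Stab1, 0.18 for Stab2, -1.47 for Lyve1, 1.11 for Kdr and 0.37 for Oit3; at 48 h it was -0.95 for Clec4g, and 1 member was called lower. The replicate block by mouse called 5 lower in the KO response over 9 and over 10 mice, against 11.7% and 12.8% of all genes. It added Stab2 and Clec4g and changed no other call in the PHx responses. With Cdh5 alone as reference the relative change in WT was 0.18 for Pecam1, -1.46 for Kdr and -0.92 for Fcgr2b, and in KO 0.14 for Pecam1, -0.39 for Bmp2 and 0.24 for Vwf.

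Leaving out 1 library at a time gave 0 to 1 members higher in each genotype comparison and in the WT response. It gave 3 to 5 lower in the KO response, where 20.1% to 40.4% of all genes were called in either direction, against 29.5% with all libraries. The count was 5 without replicate 4 of WT (30.2%), 10 of KO (40.4%) or 11 of KO (29.8%), all after PHx. In the WT response 14.6% to 22.6% of all genes were called, against 20.1% with all libraries. Kdr lost its call there without replicate 2 (15.3%) or 4 (15.1%) after PHx. Between genotypes up to 18.7% were called at baseline and 18.8% to 34.3% after PHx. KO against WT at baseline ran from -0.10 to 0.06 for Kdr and -0.04 to 0.16 for Oit3. After PHx it ran from -0.16 to 0.28 for Stab1, -0.44 to 0.06 for Stab2, -0.46 to 0.26 for Kdr, -0.23 to 0.54 for Clec4g and -0.33 to 0.17 for Oit3. The WT response ran from -0.07 to 0.42 for Stab1 and -0.04 to 0.22 for Pecam1, and the KO response from -0.25 to 0.02 for Stab1, -0.15 to 0.09 for Pecam1 and -0.05 to 0.22 for Vwf. Vwf had the fewest reads, down to 34 in a library. The 95% intervals given come from the fit in which all 4 groups shared 1 estimate of the spread. Libraries varied more after PHx, so these intervals do not show what the baseline libraries alone resolve. For Clec4g at baseline the SE was 0.54 in that fit and 0.09 with the 10 baseline libraries alone.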
